A study of Mus musculus with 4 samples.

Results

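The Notch pathway genes described here are 37 genes chosen by name: receptors, ligands, the enzymes that modify and cut them, the nuclear complex, and the Hes and Hey target genes. All 37 symbols were found, each on a single row, among the 24771 features of the deposited RNA-seq table. Total RNA came from PSC-derived SG placodes on day 10, which were grown from 129w2 mouse embryonic stem cells, and from submandibular glands (SMGs) of mouse embryos at E12.5, with 2 samples in each group. For the placodes, 3000 cells per well were seeded and kept with 2% Matrigel, BMP4 (2 ng/ml) was added on day 3, bFGF (25 ng/ml) with retinoic acid (RA, 1 μM) on day 4, and FGF10 (200 ng/ml) on day 6, while the labels call all samples otherwise untreated. The labels repeat this culture text for the SMG samples, so the SMGs were identified by their titles, and their mouse strain and dissection are not given in the sources used here. The placodes come from a single cell line, and the SMG titles name only the gland, without saying how much tissue around the epithelium was included.

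In Notch signalling a ligand on one cell binds a receptor on its neighbour. The ligand is pulled on from the sending cell, which needs the ubiquitin ligase Mib1, and the receptor is then cut by an ADAM protease and by γ-secretase. The freed intracellular domain enters the nucleus, binds the DNA-binding protein Rbpj and a Mastermind coactivator (Maml), and switches on genes for bHLH repressors of the Hes and Hey families. In the embryonic nervous system the pathway keeps progenitors from differentiating, with Dll1 in newborn neurons and Hes5 in the progenitors beside them, and in blood vessels Dll4 and Notch4 mark endothelium.

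The summed level of the 37 genes was higher in the placodes, mostly through 6 of them. This sum was 943 and 947 FPKM in the placodes against 481 and 470.1 FPKM in the SMGs, or 0.258% and 0.262% against 0.125% and 0.126% of all FPKM in the table. Hes5, Dner, Dll1, Dll3, Nrarp and Hes6 gave 438 and 436 FPKM of it in the placodes and 40.3 and 35.7 in the SMGs, and the other 31 genes 505 and 510.2 against 441 and 434. With the 42 further pathway genes described at the end, the sum was lower in the placodes, at 2349 and 2359 FPKM against 2769 and 2801, and without the single gene Dlk1 it was 2274 and 2286 against 1680.2 and 1657. FPKM is the number of fragments of a gene divided by its length and by the size of the library, so levels of different genes can be compared. With 1 FPKM or more required in each sample of a group, 32 of the 37 genes were detected in the placodes and 31 in the SMGs. The most abundant were Hes5, Dner, Hes6, Nrarp and Dll1 in the placodes, and Adam10, Aph1a, Ncstn, Numbl and Hes6 in the SMGs. Mitochondrial genes took 5.88% to 5.93% of all FPKM in the placodes and 8.07% to 10.7% in the SMGs.

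Differences were tested with limma on log2(FPKM + 1) over all 13193 features with a mean FPKM of at least 1, and a gene was called at a Benjamini-Hochberg adjusted p below 0.05. Of the 37 genes, 34 passed the filter on low values and 28 were called, 17 higher and 11 lower in the placodes. Over all tested features 76.2% were called (35.7% higher and 40.4% lower), so a call as such was not unusual, as 82.4% of the tested Notch genes had one. Called differences of at least 2-fold, meaning at least 1 on the log2 scale, were found for 10 Notch genes that were higher and 4 that were lower, together 41.2% of those tested. The same rule held for 29.4% of all tested features, 14.1% higher and 15.2% lower. The median absolute log2 difference was 0.90 among the Notch genes and 0.55 among all tested features. The groups were fully separate for 33 of the 34 tested genes, against 88.4% of all tested features. The samples of a group were close together, as the median absolute log2 difference over the 37 genes was 0.0452 within the placodes and 0.0775 within the SMGs. With 2 samples a group, the smallest p of an exact permutation test is 0.333, and nothing in the labels says that the samples were separate cultures or litters, so the p-values measure the spread between these samples only.

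**Figure D1:**
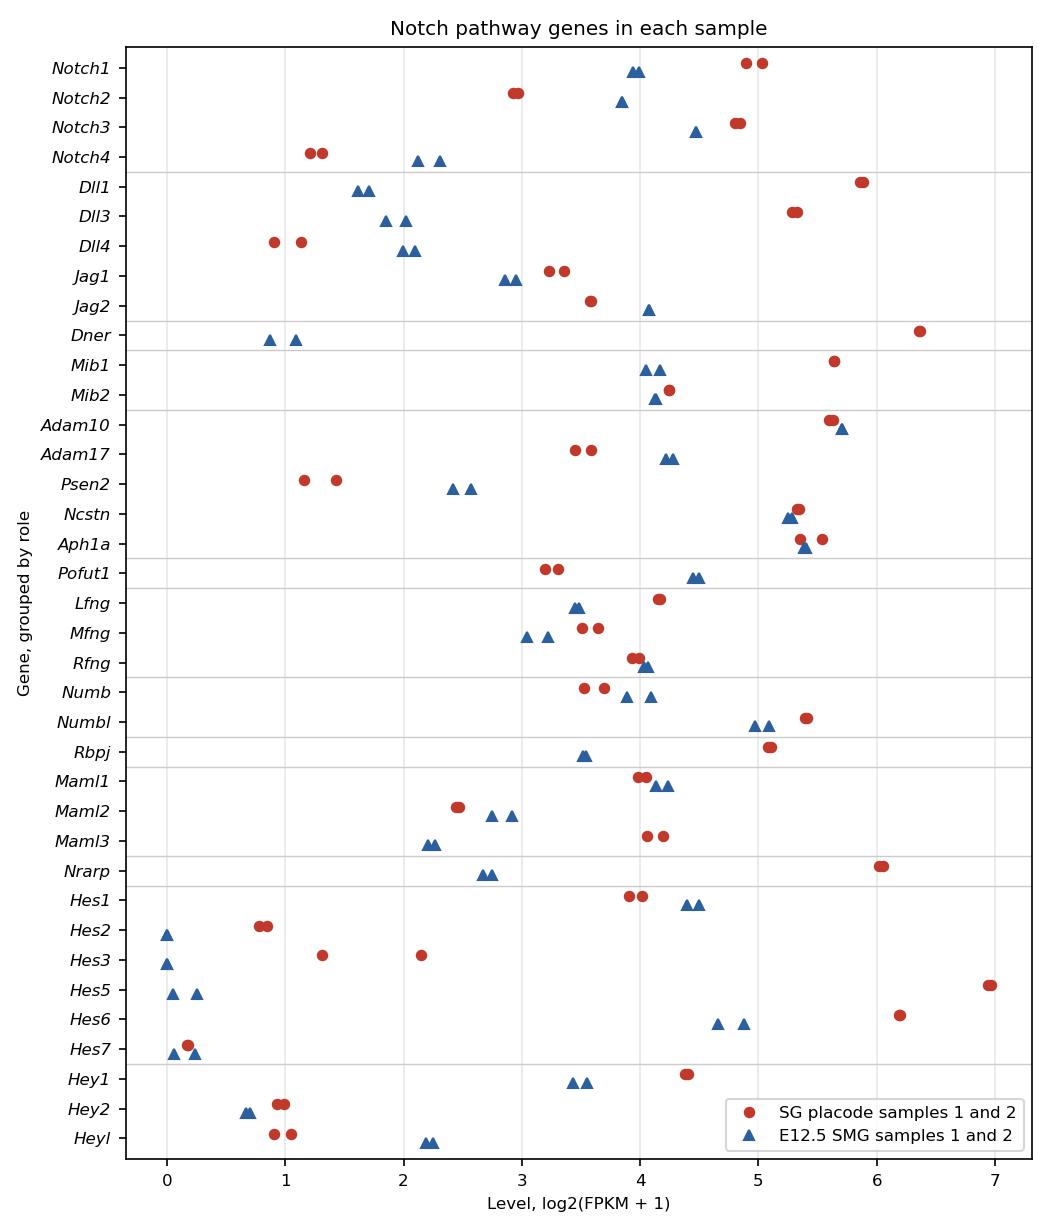
Level of each of the 37 genes as log2(FPKM + 1), on the horizontal axis, in the SG placode samples (circles) and the E12.5 SMG samples (triangles), with genes grouped by role and a point for each sample. Hes5, Dner, Dll1, Dll3 and Nrarp stand far to the right in the placodes, while Adam10, Ncstn and Aph1a sit close together in both groups.

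Promoter sequences are shown for 5 genes, to set matches to the Rbpj core beside their values: Hes5 and Lfng, which hold it on both strands, and Nrarp, Dll1 and Dll4, which do not hold it. The first 4 were higher in the placodes, Lfng by less than 2-fold, and Dll4 was lower. They were taken from RefSeq (GRCm38.p6), in which 30 of the 37 genes had an entry, and no entry was found for Hes1, Hes2, Hes3, Hey1, Heyl, Mfng and Mib1. Each runs 5′ to 3′ on the strand of the gene up to the last base before the start, and the sequence of Lfng stops where an annotated exon begins. Capitals mark TGGGAA or its reverse complement TTCCCA, the core of the sequence that Rbpj binds.
Hes5, chr4:154960673-154960922, plus strand: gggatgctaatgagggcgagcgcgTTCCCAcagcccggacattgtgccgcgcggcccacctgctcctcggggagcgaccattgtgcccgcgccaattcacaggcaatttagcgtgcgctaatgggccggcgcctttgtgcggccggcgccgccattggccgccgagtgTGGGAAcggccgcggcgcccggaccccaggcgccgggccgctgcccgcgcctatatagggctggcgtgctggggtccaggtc
Lfng, chr5:140607091-140607319, plus strand: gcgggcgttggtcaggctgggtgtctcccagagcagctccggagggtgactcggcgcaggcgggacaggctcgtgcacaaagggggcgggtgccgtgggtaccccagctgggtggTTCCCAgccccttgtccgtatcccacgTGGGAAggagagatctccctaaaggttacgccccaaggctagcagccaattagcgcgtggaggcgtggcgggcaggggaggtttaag
Nrarp, chr2:25180508-25180757, plus strand: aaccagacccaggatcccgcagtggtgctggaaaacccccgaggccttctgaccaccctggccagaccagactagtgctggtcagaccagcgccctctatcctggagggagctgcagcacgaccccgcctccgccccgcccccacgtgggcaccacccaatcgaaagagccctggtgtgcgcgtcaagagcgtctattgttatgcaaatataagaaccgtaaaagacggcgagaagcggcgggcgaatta
Dll1, chr17:15376933-15377182, minus strand: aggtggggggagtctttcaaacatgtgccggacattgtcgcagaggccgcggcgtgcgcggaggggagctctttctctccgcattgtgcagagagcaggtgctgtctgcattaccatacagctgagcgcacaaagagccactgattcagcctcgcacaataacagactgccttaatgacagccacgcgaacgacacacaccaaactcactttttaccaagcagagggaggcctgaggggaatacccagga
Dll4, chr2:119325534-119325783, plus strand: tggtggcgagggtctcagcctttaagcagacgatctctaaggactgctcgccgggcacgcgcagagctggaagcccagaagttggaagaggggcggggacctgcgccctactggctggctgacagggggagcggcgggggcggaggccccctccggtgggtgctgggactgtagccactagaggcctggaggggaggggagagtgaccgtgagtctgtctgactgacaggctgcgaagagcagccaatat
In Hes5 the core was found on both strands, at positions -226 to -221 and -82 to -77 counted from the start of the gene. Lfng also held it on both strands, at -135 to -130 and -108 to -103. These letters were not in the windows of Nrarp, Dll1 and Dll4. Among the 30 genes, 8 held the core within the 250 bases before any of their starts, and these were Hes5, Hes7, Hey2, Lfng, Maml2, Maml3, Psen2 and Rbpj. By promoter, 9 of 38 (23.7%) held it, beside 21.6% of all 32851 promoters in the table. Of the 8 genes, 4 were higher and 2 lower in the placodes and 2 were not tested, and of the 22 without it, 9 were higher, 7 lower and 6 not called. CACGCG, a class C site to which Hes proteins can bind, was found on either strand in 9 of the 38 promoters (23.7%) and in 7.62% of all promoters. It lay in Dll1, Dll4, Hes7, Jag1, Lfng, Mib2, Notch2 and Rfng, of which Dll1, Jag1 and Lfng were higher in the placodes and Dll4 and Notch2 lower. Windows of a gene with several starts can overlap, so the same site was counted more than once for Mib2 here and for Rbpj above. Some windows, such as those of Dll3 and Jag2, lie inside exons of the gene. The shares were not adjusted for base composition. CACNAG, the N-box of Hes proteins, was in 34.2% of the 38 promoters and 36.7% of all, and CANNTG, the E-box of bHLH proteins at large, in 60.5% and 66.2%. The 4 motifs differ in letters, and a match to one may share bases with a match to another.

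The receptors changed in opposite directions, with Notch1 and Notch3 higher and Notch2 and Notch4 lower in the placodes. Notch1 was at 28.7 and 31.7 FPKM in the placodes against 14.8 and 14.4 in the SMGs, a log2 difference of 0.998 (standard error 0.07, adjusted p = 2.92e-05). Notch3, which is also a receptor of mural cells around vessels, was at 26.9 and 27.8 against 21.2 and 21.3, a smaller difference of 0.35 (adjusted p = 0.00114). Both were higher in each placode sample than in each SMG sample. Notch2 was lower in the placodes, at 6.61 and 6.80 against 13.4 and 13.4, by a log2 difference of -0.90 (standard error 0.07, adjusted p = 5.37e-05). Notch4, a receptor of endothelium, was at 1.48 and 1.31 against 3.95 and 3.36 (log2 difference -0.96, adjusted p = 4.25e-04), and its ratio of mean FPKM was 2.62-fold because the added 1 shrinks differences of low values.
Within a sample, the share of each receptor in the summed FPKM of the 4 receptors does not depend on the scaling between samples. Notch1 made up 45.0% and 46.9% of receptor FPKM in the placodes against 27.8% and 27.4% in the SMGs. Notch2 made up 10.4% and 10.1% against 25.0% and 25.5%. The share of Notch3 was nearly the same, 42.2% and 41.1% against 39.8% and 40.6%. In the placodes Notch1 and Notch3 led, and in the SMGs Notch3 led with Notch1 and Notch2 at similar levels.

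Jagged genes led among the ligands of the SMGs and Delta-like genes among those of the placodes, where Dll1 and Dll3 were higher. The levels of Jag1 and Jag2 themselves differed by less than 2-fold between the groups. The summed FPKM of the 5 DSL ligands, the Delta-like and Jagged proteins that activate or bind Notch, was 118 and 116 in the placodes against 30.7 and 30.3 in the SMGs. Dll1 (ENSMUSG00000014773, chr17:15367354-15376872 of GRCm38) was at an FPKM of 58.2 and 57.1 in the placodes and 2.27 and 2.07 in the SMGs. This was 26.5-fold by mean FPKM and 4.21 as a log2 difference (standard error 0.07, adjusted p = 1.94e-07). A lincRNA gene on the opposite strand overlaps 867 of the 4219 exon bases of Dll1. Dll3 (ENSMUSG00000003436), a Delta-like protein that stays largely inside the cell and dampens signalling there, was at 39.0 and 37.9 against 3.05 and 2.61. Its log2 difference was 3.37 (standard error 0.08, adjusted p = 5.24e-07).
Dll4, the Delta-like ligand of endothelium, went the other way, with an FPKM of 1.19 and 0.871 in the placodes and 3.27 and 3.00 in the SMGs (3.04-fold lower by mean FPKM, log2 difference -1.03, standard error 0.13, adjusted p = 4.21e-04). Jag2, the most abundant DSL ligand of the SMGs, was at 11.0 and 11.0 in the placodes and 15.9 and 15.9 in the SMGs (log2 difference -0.49, adjusted p = 4.63e-04). Jag1 was slightly higher in the placodes, at 8.40 and 9.24 against 6.24 and 6.73 (log2 difference 0.39, adjusted p = 0.00683). Its adjusted p was 0.0587 without placode sample 2.
Dll1 and Dll3 together held 82.5% and 81.8% of DSL ligand FPKM in the placodes, against 17.3% and 15.5% in the SMGs, where Jag2 alone held 51.7% and 52.4%. The ratio of Dll1 to Jag2 was 5.31 and 5.19 in the placodes against 0.143 and 0.130 in the SMGs.
Dner (ENSMUSG00000036766, chr1:84369839-84696221), a transmembrane protein with EGF repeats that is made by neurons and has been described as an atypical Notch ligand, was the second most abundant of the 37 genes in the placodes. Its FPKM was 80.9 and 81.7 there and 1.13 and 0.825 in the SMGs, a log2 difference of 5.38 (standard error 0.09, adjusted p = 2.04e-07). This difference ranked 34 from the top among the 13193 tested features.
Mib1, the ubiquitin ligase that readies ligands for signalling, was at 48.8 and 48.8 in the placodes and 16.9 and 15.5 in the SMGs (log2 difference 1.53, standard error 0.06, adjusted p = 2.86e-06). Mib2, a related ligase, was at 18.003 and 17.96 against 16.5 and 16.5, and was not called (log2 difference 0.12, 95% interval -0.02 to 0.25, adjusted p = 0.103). In the SMGs the levels of Mib1 and Mib2 were alike, while in the placodes Mib1 was well above Mib2.

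**Figure D2:**
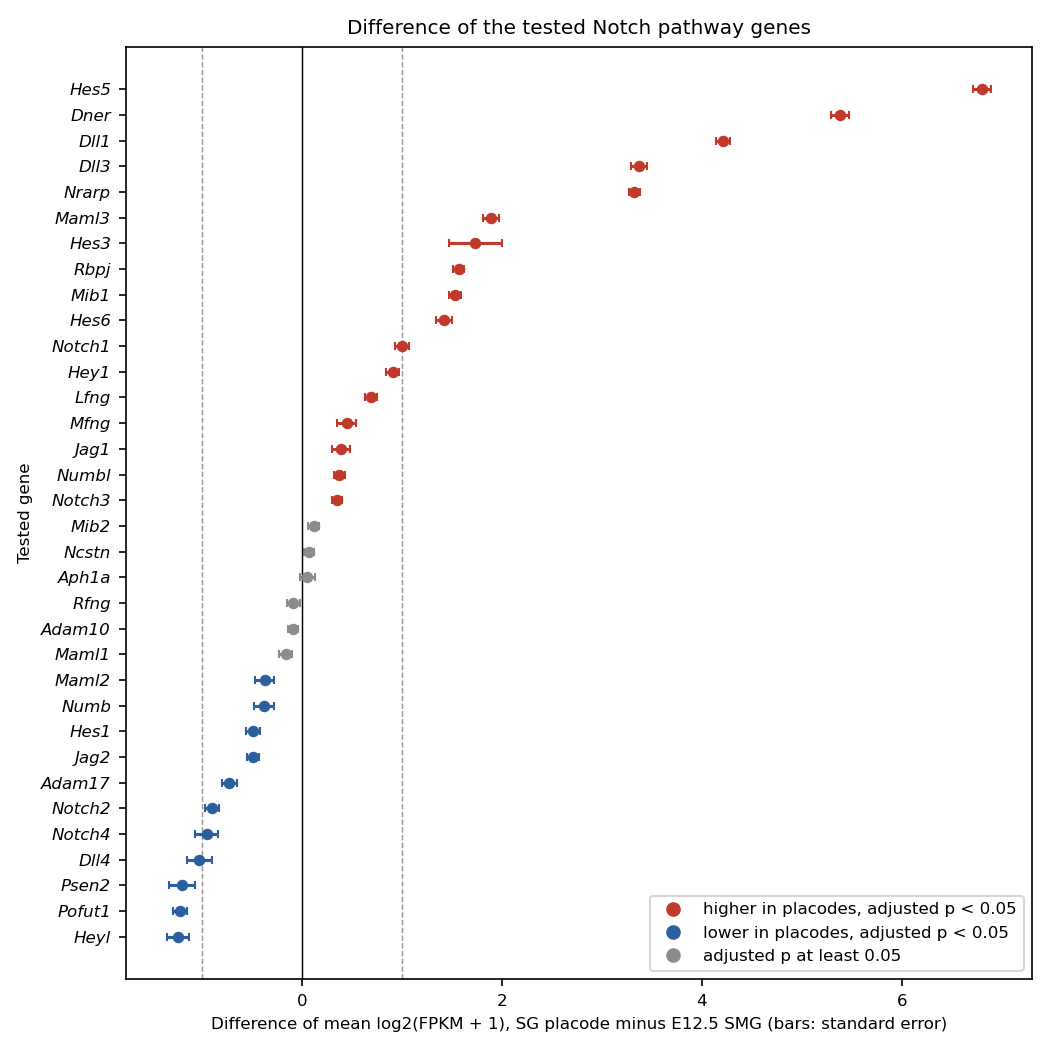
Difference between the group means of log2(FPKM + 1), SG placode minus E12.5 SMG, for the 34 tested genes in order, with bars for the standard error and dashed lines at a difference of 1 in either direction. The largest differences are 6.80 for Hes5 and 5.38 for Dner, the lowest is -1.24 for Heyl, and 6 genes in grey were not called. Hes3, listed at 0 in both SMG samples, and Hes5, below 0.2 there, have places that depend on the added 1.

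Of the 5 proteases and γ-secretase subunits, 3 were not called and 2 were lower in the placodes. Adam10, the sheddase that makes the first cut after ligand binding, was the most abundant of the 5 genes in every sample, at 48.4 and 47.4 in the placodes and 51.2 and 51.1 in the SMGs. Its log2 difference was -0.09 with a 95% interval from -0.20 to 0.02 (adjusted p = 0.111). Ncstn, which encodes nicastrin, was at 39.6 and 39.2 against 37.9 and 37.1 (log2 difference 0.07, 95% interval -0.05 to 0.19, adjusted p = 0.221).
Aph1a, a scaffold subunit of γ-secretase, was at 45.5 and 39.7 against 41.3 and 40.7, and was the tested Notch gene whose groups overlapped (adjusted p = 0.541). Its log2 difference of 0.05 had a 95% interval of -0.13 to 0.23 and turned to -0.04 without placode sample 1. Aph1a shares 445 of its 3450 exon bases with Car14 on the other strand, which was at 48.4 and 43.2 in the placodes and 11.8 and 11.0 in the SMGs.
Lower levels in the placodes were found for Adam17, a second sheddase, and Psen2, a catalytic subunit of γ-secretase. Adam17 was at 11.0 and 9.95 against 17.6 and 18.4 (log2 difference -0.73, adjusted p = 1.76e-04). Psen2 was at 1.24 and 1.69 against 4.95 and 4.36 (log2 difference -1.20, standard error 0.13, adjusted p = 2.55e-04). It held 0.849% and 1.23% of the FPKM of the 5 genes in the placodes and 3.24% and 2.87% in the SMGs.

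Of the enzymes among the 37 genes that add sugars to the receptors, Pofut1 was lower and the fringes were level or higher. Further such enzymes were in the list of 42 genes described at the end. Gxylt1, Poglut1 and Eogt were called lower there (log2 differences -1.23, -0.30 and -0.56), and Xxylt1 was called higher (0.42). Pofut1, which attaches the O-fucose that fringes extend, was at an FPKM of 8.15 and 8.91 in the placodes and 21.6 and 20.8 in the SMGs (2.48-fold lower by mean FPKM, log2 difference -1.22, standard error 0.07, adjusted p = 1.49e-05). Lfng was at 16.8 and 16.9 against 9.94 and 10.2 (log2 difference 0.69, adjusted p = 1.07e-04), and was the leading fringe of the placodes. Mfng was at 10.4 and 11.5 against 7.27 and 8.31 (log2 difference 0.45, adjusted p = 0.00535), with an adjusted p of 0.0619 without placode sample 2 and 0.0597 without the filter on low values.
Rfng, the leading fringe of the SMGs, was at 14.9 and 14.3 against 15.4 and 15.8 and was not called (log2 difference -0.09, 95% interval -0.24 to 0.06, adjusted p = 0.233). Its share of fringe FPKM was 35.4% and 33.4% in the placodes and 47.2% and 46.0% in the SMGs.

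The genes of Numb proteins, which are endocytic inhibitors of the receptors, moved apart slightly. Numbl was at 41.5 and 41.1 in the placodes and 30.3 and 33.1 in the SMGs (log2 difference 0.37, adjusted p = 0.00147). Numb was at 10.5 and 11.9 against 16.0 and 13.9 (log2 difference -0.38, adjusted p = 0.0113). The call of Numb was lost without placode sample 1 (adjusted p = 0.103), without SMG sample 1 (adjusted p = 0.0799) and without the filter on low values (adjusted p = 0.106).

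In the nuclear complex, Rbpj and Maml3 were higher in the placodes. Rbpj (ENSMUSG00000039191), the DNA-binding factor through which all 4 receptors act, was at 33.5 and 32.8 in the placodes and 10.6 and 10.5 in the SMGs (3.14-fold, log2 difference 1.56, standard error 0.06, adjusted p = 1.99e-06). Maml3 was at 15.7 and 17.3 against 3.80 and 3.62 (4.44-fold, log2 difference 1.89, standard error 0.08, adjusted p = 5.09e-06). The other two Mastermind genes were not higher. Maml1 was at 14.8 and 15.6 against 17.8 and 16.6 (log2 difference -0.17, adjusted p = 0.0594). Maml2 was at 4.44 and 4.54 against 6.56 and 5.73 (log2 difference -0.38, adjusted p = 0.0124), and its call was lost without either placode sample (adjusted p = 0.0782 without sample 1 and 0.0665 without sample 2), without SMG sample 1 (adjusted p = 0.0695) and without the filter on low values (adjusted p = 0.0586). Maml3 made up 44.8% and 46.2% of Maml FPKM in the placodes against 13.5% and 14.0% in the SMGs, where Maml1 made up 63.2% and 63.9%.

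Targets of the pathway went in both directions. Nrarp (ENSMUSG00000078202, chr2:25180758-25183339), a target that feeds back to destabilise the receptor's intracellular domain, was at 65.5 and 63.9 in the placodes and 5.38 and 5.74 in the SMGs. This was 11.6-fold by mean FPKM and 3.32 as a log2 difference (standard error 0.06, adjusted p = 2.22e-07). An antisense gene on the opposite strand covers 2051 of the 2582 exon bases of Nrarp, and reads of the pair cannot be told apart if strand was not used in counting, which is not given in the sources used here.
Hes5 (ENSMUSG00000048001, chr4:154960923-154962371), the Hes gene of neural progenitors whose promoter with a TGGGAA match on each strand is printed above, was the most abundant of the 37 genes in the placodes and among the lowest in the SMGs. It reached 122 and 124 FPKM in the placodes against 0.0343 and 0.193 in the SMGs, a log2 difference of 6.80 (standard error 0.09, adjusted p = 1.23e-07) that ranked 5 from the top among all tested features. Because the SMG levels are so low, the size depends on the added 1: the log2 difference was 9.28 with 0.1 added, and the ratio of mean FPKM was 1084-fold. A transcript on the opposite strand overlaps 433 of its 1363 exon bases.
Hes6, which encodes a Hes protein that promotes neuronal and muscle differentiation and counteracts Hes1, was at 72.1 and 71.9 in the placodes and 28.4 and 24.3 in the SMGs (2.73-fold, log2 difference 1.42, standard error 0.08, adjusted p = 1.13e-05). Hes1, the Hes gene with the broadest expression across tissues, went the other way, at 13.9 and 15.2 against 21.6 and 20.1 (log2 difference -0.49, standard error 0.07, adjusted p = 9.37e-04). The groups did not overlap for either gene. The ratio of Hes5 to Hes1 was 8.75 and 8.17 in the placodes against 0.00158 and 0.00959 in the SMGs.
Hes3, another gene of early neural progenitors, was at 1.48 and 3.44 in the placodes, and both SMG samples list it at 0. Hes3 was called higher (adjusted p = 0.00125), but not without the filter on low values (adjusted p = 0.0561), and without placode sample 2 its mean fell below the filter. Hes2 was at 0.720 and 0.801 in the placodes and likewise 0 in each SMG sample, and was not tested. Hes7, a gene of the segmentation clock of the presomitic mesoderm, was at or below 0.182 in every sample. Markers of that tissue were at a summed FPKM of 1.53 to 1.65 in the placodes and 0.760 to 1.67 in the SMGs over 6 genes, with Msgn1 at 0 in all samples. Members of this list differed in both directions. Ripply2 was at 0.975 and 1.36 in the placodes and 0 in both SMG samples, and T at 0.0268 and 0 against 0.500 and 0.324.
Hes5 and Hes6 together led the family in the placodes, with 58.0% and 57.5% of Hes FPKM for Hes5 and 34.3% and 33.4% for Hes6. In the SMGs the family was Hes6, at 56.5% and 54.5%, and Hes1, at 43.1% and 45.0%.

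The Hey genes, targets with a role in vessels and heart, also split. Hey1 was at 19.9 and 20.2 in the placodes and 10.7 and 9.79 in the SMGs (log2 difference 0.90, standard error 0.07, adjusted p = 4.97e-05). Heyl was at 0.872 and 1.07 against 3.56 and 3.76 (3.77-fold lower by mean FPKM, log2 difference -1.24, standard error 0.11, adjusted p = 1.00e-04), the lowest log2 difference of the tested Notch genes. Hey2 was at 0.911 and 0.982 against 0.629 and 0.591 and was not tested. Hey1 accounted for 91.8% and 90.8% of Hey FPKM in the placodes and 71.9% and 69.3% in the SMGs, and Heyl for 4.03% and 4.80% against 23.9% and 26.6%.

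**Figure D3:**
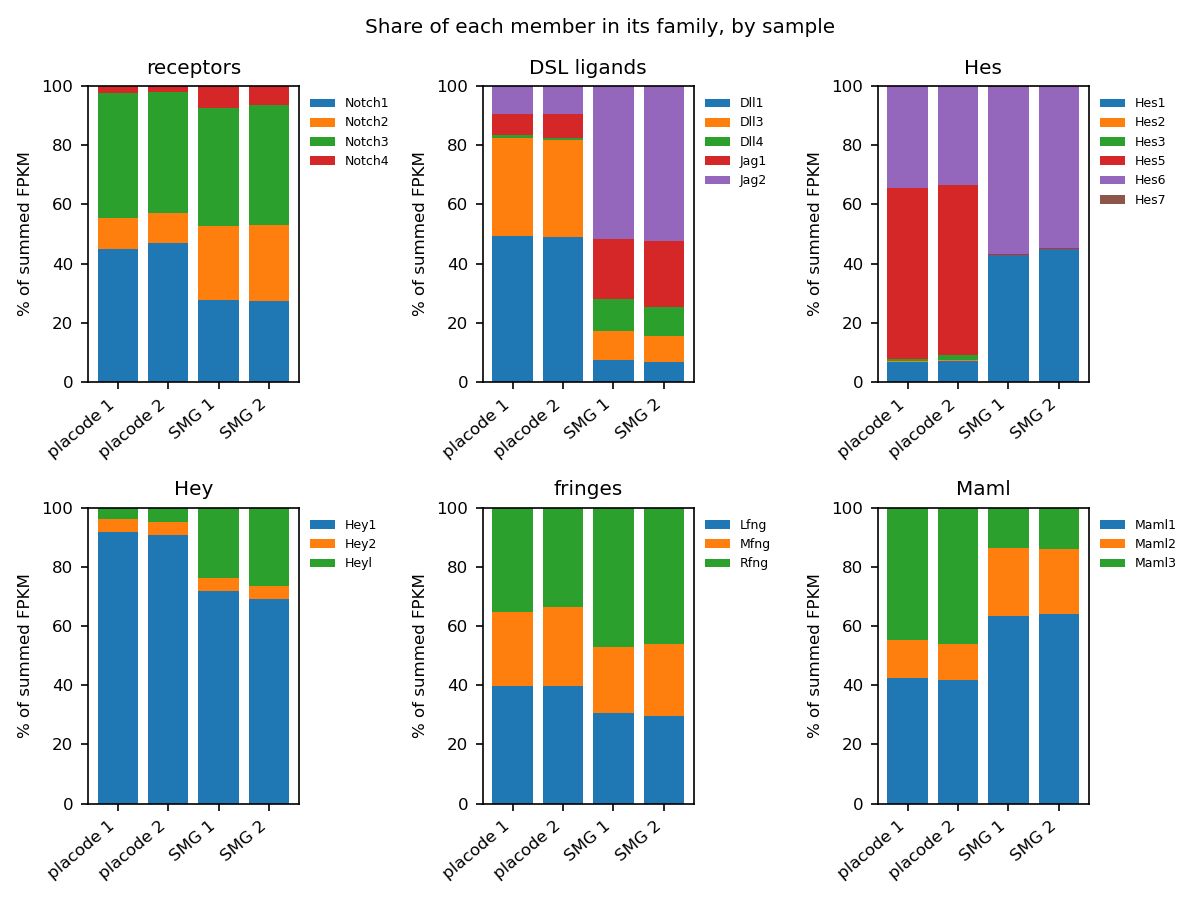
Share of each gene in the summed FPKM of its family, in percent, with a stacked bar for each of the 4 samples and a panel for each of 6 families. Delta-like genes fill most of the ligand bar in the placodes and Jagged genes most of it in the SMGs, Hes5 appears in the placodes only as a visible share, and Maml3 widens from about 14% to about 45%.

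Marker genes of the cell types that the samples could hold moved with these values, and in bulk RNA fewer cells of a type and less RNA per cell cannot be told apart. All 7 neural progenitor markers were higher in the placodes, with a summed FPKM of 732 to 757 against 61.8 to 66.2, and all 8 neuronal markers were higher, at 975.4 to 1014 against 82.7 to 92.2. Of 8 genes listed as proneural factors, some of which drive Delta genes in newborn neurons, 5 were tested and all 5 were higher. The summed FPKM of the list was 113 to 119 against 8.83 to 10.5. Neurog1 was at 41.5 and 45.7 in the placodes, where both SMG samples list 0. The part of neural cells in the levels of Hes5, Dll1, Dll3, Dner and Nrarp was not tested.
The listed markers of salivary epithelium, the labelled tissue, were low in the placodes. All 8 markers on this list were lower there, at a summed FPKM of 5.49 to 5.70 against 569 to 593. Krt5, Krt14 and Krt15 were at 0 in both placode samples. The paper, in contrast, reports Krt5 in its aggregates by qPCR and by immunofluorescence. The reason for this difference was not tested. Krt19 and Ascl3, which the paper also uses as salivary progenitor markers, were not on the list. Sox9, a transcription factor of early salivary epithelium and also of neural progenitors, was not on the list and was named after its values were seen. It was at 42.1 and 43.0 in the placodes and 9.31 and 7.66 in the SMGs (log2 difference 2.20, adjusted p = 3.66e-06). All 8 mesenchyme markers were also lower, at 199.7 to 204 against 1874 to 1919, with none at 0. The markers of both lists were detected in the SMGs, where blood markers, led by Hbb-y, had a summed FPKM of 2065 to 2160 against 1.90 to 2.29 in the placodes.
All 10 endothelial markers were lower in the placodes, at a summed FPKM of 14.5 to 15.4 against 156 to 162. Pecam1 was at 0.941 and 0.807 against 30.6 and 31.2, and Tie1 at 0 and 0.122 against 17.1 and 17.2. Of 6 mural cell markers, 5 were tested and lower, at 11.8 to 12.4 against 52.7 to 55.6 over all 6. These values stand beside the lower levels of Notch4, Dll4 and Heyl. Notch3 and Hey1, also linked to vessels above, went the other way and were higher in the placodes (log2 differences 0.35 and 0.90). The part of endothelial and mural cells in the levels of these Notch genes was not tested. Skeletal muscle markers summed to 0.984 to 1.02 in the placodes and 103 to 149 in the SMGs, and Schwann cell precursor markers to 7.43 to 8.64 against 36.6 to 39.6. Of the Schwann cell precursor markers, 4 were tested and 3 were lower. Foxd3 was not called, at 4.40 and 3.56 in the placodes against 2.99 and 3.15.

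**Figure D4:**
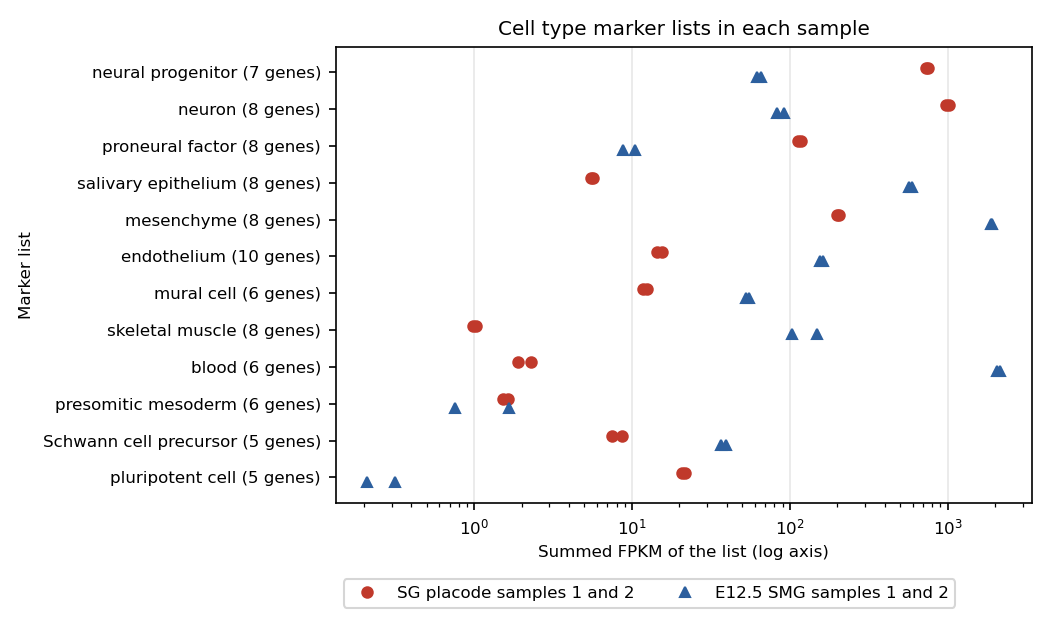
Summed FPKM of each cell type marker list on a log axis in the SG placode samples (circles) and the E12.5 SMG samples (triangles), with the number of genes in each list in brackets. Neural progenitor, neuron and proneural lists lie to the right in the placodes, and the salivary epithelium, mesenchyme, endothelium, mural cell, muscle and blood lists lie to the right in the SMGs.

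Further genes of the pathway were examined as a list of 42, all found in the table, that holds further γ-secretase subunits, furin, other glycosyltransferases, Deltex and other ubiquitin ligases, non-canonical ligands, coactivators and corepressors. Of these, 40 were tested and 34 called, 18 higher and 16 lower, which is 85.0% beside 76.2% of all tested features. Called differences of at least 2-fold were found for 22.5% of them, 5 higher and 4 lower, beside 29.4% of all features. Their median log2 difference was 0.02.
The highest called differences of this list belonged to Dtx4, Sap30 and Bend6. Dtx4, a Deltex ubiquitin ligase that acts on Notch receptors, was at 60.4 and 63.8 in the placodes and 6.14 and 5.16 in the SMGs (log2 difference 3.25, standard error 0.08, adjusted p = 6.51e-07). Sap30, a subunit of the Sin3 corepressor complex, was at 56.1 and 56.8 against 16.9 and 14.98, and Bend6, a neural corepressor that binds Rbpj, at 3.75 and 3.69 against 0.555 and 0.580. Their log2 differences were 1.76 and 1.59.
The lowest belonged to Tle2, Dlk1 and Furin. Tle2, a Groucho-type corepressor that Hes proteins recruit, was at 0.816 and 1.21 in the placodes and 34.3 and 34.7 in the SMGs (log2 difference -4.15, standard error 0.11, adjusted p = 6.99e-07). Tle1, Tle3 and Tle4, its paralogues, were each called higher in the placodes, with log2 differences of 1.41, 0.80 and 0.56 (named after their values were seen). Dlk1, a non-canonical ligand without the DSL domain, was at 75.0 and 73.8 against 1089 and 1144 (log2 difference -3.89, adjusted p = 1.36e-07). Furin, the protease that cleaves the receptors on their way to the surface, was at 9.46 and 7.86 against 30.4 and 30.6 (log2 difference -1.71, adjusted p = 9.72e-06).
Of further γ-secretase subunits, Psenen was at 48.1 and 40.95 in the placodes and 41.7 and 45.8 in the SMGs (adjusted p = 0.831), and Aph1b was at 5.10 and 5.50 against 6.16 and 5.18 (adjusted p = 0.525). The groups overlapped for both genes.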

How the data were processed

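RNA was sequenced from 2 samples of SG placodes and 2 of SMGs at E12.5, grouped by their titles. The authors mapped the reads with HISAT2 and deposited 1 table of FPKM. The submitters' processing notes list GRCm38 and GRCh38 without roles, and the annotation, the program that computed FPKM and the use of strand are not given in the sources used here. All 37 identifiers and symbols matched GENCODE M21 (GRCm38), from which coordinates and exons were taken. Of the 37 genes, 13 share exon bases with a gene on the opposite strand and 3 on the same strand, so such levels are uncertain. With GENCODE M21 exon lengths, no steps of whole reads were found in FPKM (at most 11.0% of low values within 0.02 of a whole multiple). The lengths behind the FPKM are not known, so this search cannot show that such steps are absent. The depth is thus unknown and no counting interval is given.

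Features with a mean FPKM of at least 1 were put on the scale of log2(FPKM + 1) and fitted by limma (version 3.58.1, under R 4.3.3) through lmFit and a trended eBayes step, with no covariate besides group. Two-sided p-values were adjusted by Benjamini-Hochberg over 13193 features, and the procedure was tested on simulated data. Replicate numbers were not treated as pairs. Alternatives changed the pseudocount, filter, scaling, variance model, block and samples, and leaving out assembled loci was chosen after seeing the data. Motifs were searched on both strands in the 250 bases before each start. A planned comparison of protein sequences was not made. Figures were drawn with Python 3.11.15.

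The genes, lists and motifs were chosen with earlier results of these data known. Every one of the 37 genes is accounted for, with values of each sample for genes called at least 2-fold apart and for the leading gene of each family. Of the 42 further genes, the 3 highest and the 3 lowest called are named. Tle1, Tle3, Tle4, Psenen, Aph1b, Gxylt1, Poglut1, Eogt, Xxylt1 and Sox9 were named after their values were seen.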

Additional observations from a re-analysis of the deposited data

How the results depend on the processing

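Over the 34 tested Notch genes and 13 alternative fits, 416 of the values kept their direction and their side of the threshold, 11 lost the call, 7 gained it and 2 changed sign, both of Aph1a, which was not called: -0.014 after quantile normalization, and from -0.045 to 0.147 with each replicate left out in turn. Lost calls were those of Hes3, Jag1, Maml2, Mfng and Numb, and gained calls those of Adam10, Mib2 and Ncstn. At a mean FPKM of at least 5, 7 Notch genes were lower and 1 of them at least 2-fold, since fewer low genes were tested. With each replicate left out in turn, 14 to 17 genes were higher and 9 to 11 lower. With the replicate number as a block, 17 were higher and 11 lower, as without it, although the numbers did not pair the samples (correlation of same-numbered deviations -0.0348), and 10043 features were called in all, against 10049. Leaving out a replicate puts a single sample in an arm, which is then assumed to vary like the other group. At least 2-fold higher were 9 to 11 genes and lower 3 to 5 over all other fits. Detection at an FPKM of at least 0.1 gave 37 genes in the placodes and 33 in the SMGs, and at 5 gave 28 and 24. Calls were lost most often for Maml2, in 4 fits, and Numb, in 3. The labels give neither a date nor a batch, and one that followed the groups cannot be told apart from them.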

Other observations

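In the placodes the pluripotency gene Esrrb had an FPKM of 20.0 and 19.6, against 0.0630 and 0.0628 in the SMGs (log2 difference 4.29, adjusted p = 3.69e-07), while Pou5f1 was at 0.403 and 0.340, Nanog at 0.149 and 0.234 and Zfp42 at 0.222 and 0.0926. Among the 37 Notch genes, Hes3 differed most between the placode samples, by 0.839 on the log2 scale. The 37 genes were also unequal in how far their families differed, since summed FPKM of the Hes family was 210.5 and 215 in the placodes against 50.2 and 44.6 in the SMGs, while that of the receptors was 63.7 and 67.6 against 53.4 and 52.4. Of the genes that cut the receptors the sum was 146 and 138 against 153 and 152.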
